A study of Cucumis melo with 18 samples.

Results

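The genes described here are 3 loci known from melon genetics for their part in fruit pigmentation, *CmOr* (MELO3C005449.2), *CmPPR1* (MELO3C003069.2) and *CmAPRR2* (MELO3C003375.2). They were chosen by identifier from the 22394 genes of the count table, and all 3 had counts in every library. The symbols come from melon genetics, because the table holds identifiers only. The question was whether their expression differed between “B-14”, an inbred line with orange flesh, and “B-6”, an inbred line with white flesh.

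The 18 RNA-seq libraries formed 6 groups of 3. Fruits of “B-14” were sampled 10 days after pollination (DAP), 30 DAP and 45 DAP and are named “1_14”, “3_14” and “4_14”, and those of “B-6” at the same stages are named “1_6”, “3_6” and “4_6”. The study's methods describe fruits of both lines as turning from green to their final colour. Its results instead report that “B-14” flesh went from yellow to orange and that “B-6” showed no major change of colour. The plants were grown in a greenhouse, and flesh was taken from 3 individual plants with a single pollinated fruit each. The study's wording does not settle whether a replicate is a single plant or a pool of plants. Each colour is represented by a single inbred line, so flesh colour and every other difference between the lines cannot be told apart. The study's methods describe the tissue as flesh while the sample labels call it blade, and since the table gives no gene names it was not checked against tissue markers.

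OR is a plastid protein with a DnaJ-type zinc finger domain. It holds phytoene synthase (PSY), the entry enzyme of carotenoid synthesis, in an active state, and it promotes the formation of chromoplasts, the plastids that store carotenoids. In melon, the alleles of *CmOr* for orange and for non-orange flesh are known to differ by an amino acid change in the protein, which a gene count does not show. *CmPPR1* encodes a pentatricopeptide repeat protein, a member of a large family that binds organelle RNA, and was linked to the colour intensity of orange flesh by genetic mapping. *CmAPRR2* encodes a pseudo-response regulator-like transcription factor related to the GLK factors of chloroplast development, and its variants are known for their effect on rind colour and on pigment amount in the fruit.

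Total counts per library lay between 20651703 and 22675606. Levels are given in CPM, each count as a share of its library's total, scaled by TMM factors, which correct for differences in library composition, and they were compared between libraries of a gene and never between genes, since no gene lengths were used. The raw counts of *CmOr* ranged from 483 to 2414 per library, those of *CmPPR1* from 69 to 366 and those of *CmAPRR2* from 4666 to 45216. Counting error alone, taken as the Poisson standard deviation, was at most 4.55% of the value for *CmOr*, 12% for *CmPPR1* and 1.46% for *CmAPRR2*. The median coefficient of variation between replicates over the 6 groups was 8.42%, 17.4% and 17.5% for *CmOr*, *CmPPR1* and *CmAPRR2*, against a median of 12.9% over 17437 genes. In these bulk libraries, fewer cells that express a gene and less RNA of it per cell cannot be told apart.

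The lines were compared at each stage with edgeR's quasi-likelihood F test on 6 libraries, and a gene was called where its Benjamini-Hochberg adjusted p-value over all genes tested was at most 0.05. Of the 9 tests of 3 genes at 3 stages, 4 were called. *CmAPRR2* was downregulated in “B-14” at 30 and 45 DAP, *CmPPR1* was lower in “B-14” at 10 DAP and higher at 30 DAP, and *CmOr* was called at no stage. By the same test, 48.8% of 16531 genes were called at 10 DAP, 19.2% of 15501 at 30 DAP and 16% of 15382 at 45 DAP, so a call at 10 DAP was a common event.

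**Figure D1:**
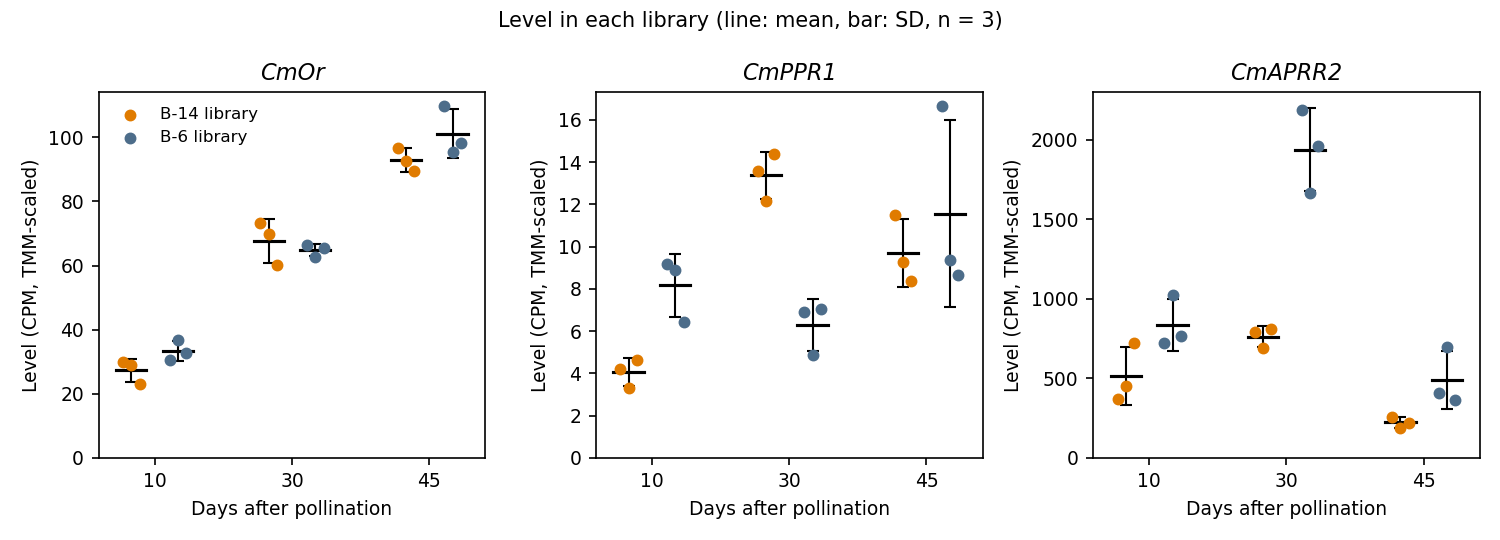
Level of each gene (y axis, CPM scaled by TMM factors, starting at 0) against days after pollination, with “B-14” in orange left of “B-6” in blue; points are libraries, lines are means and bars are SD (n = 3). *CmOr* climbed together in both lines, *CmPPR1* changed its order between 10 and 30 DAP, and *CmAPRR2* lay lower in “B-14” at each stage.

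*CmOr*, the gene whose alleles set orange against non-orange flesh in melon, passed the test between the lines at none of the 3 stages. At 10 DAP its levels were 29.9, 28.9 and 23.2 CPM in “1_14”, against 30.5, 36.6 and 32.7 CPM in “1_6”. All 3 “B-14” libraries lay below all “B-6” libraries, with a gap of less than 1 CPM between the nearest. The log2 fold change of “B-14” over “B-6” was -0.30 (standard error 0.15), and edgeR's adjusted p of 0.12 missed the threshold.

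At 30 DAP, *CmOr* had 73.3, 69.9 and 60.1 CPM in “3_14”, against 66.3, 62.7 and 65.5 CPM in “3_6”. At 45 DAP it had 96.7, 92.8 and 89.4 CPM in “4_14”, against 109.8, 95.5 and 98.2 CPM in “4_6”. The libraries of the lines overlapped at both stages. The log2 fold changes were 0.07 (95% interval -0.13 to 0.27, adjusted p = 0.58 from edgeR) at 30 DAP and -0.13 (-0.35 to 0.09, adjusted p = 0.37) at 45 DAP.

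Over the 3 stages together, in a fit of all 18 libraries, the log2 fold change of *CmOr* between the lines was -0.11, with a 95% interval of -0.24 to 0.02 and an adjusted p of 0.15 from edgeR. A mean excess of *CmOr* transcript in the orange line of more than 0.02 on the log2 scale lay outside this interval. Of the 17437 genes tested in that fit, 39.1% were called, and 26.1% had a line difference of smaller size than that of *CmOr*. Without replicate 1 of “1_14” the value was -0.17, with an adjusted p of 0.047, towards lower levels in “B-14”. It was the only call among the 18 fits that left out a library.

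*CmPPR1*, the gene linked to colour intensity, differed between the lines in opposite directions at the first stages. At 10 DAP its levels were 4.22, 3.32 and 4.61 CPM in “1_14”, against 9.16, 8.89 and 6.43 CPM in “1_6”. At 30 DAP they were 13.6, 12.2 and 14.4 CPM in “3_14”, against 6.91, 4.88 and 7.06 CPM in “3_6”. The lines did not overlap at either stage, with “B-14” below “B-6” at 10 DAP and above it at 30 DAP.

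The log2 fold change of *CmPPR1* was -1.03 (standard error 0.23, adjusted p = 0.0070 from edgeR) at 10 DAP, so that “B-14” had 0.491 times the level of “B-6”. At 30 DAP it was 1.10 (standard error 0.16, adjusted p = 0.0058), or 2.14 times the level of “B-6”, a difference larger in size than that of 93.0% of the genes tested. Both passed the 2-fold threshold that the study used for differentially expressed genes (DEGs) together with an unadjusted p-value of at most 0.05. That rule took 27.2% of genes at 10 DAP and 7.03% at 30 DAP. Each call held in all 6 fits that left out a library, with log2 values from -1.16 to -0.90 at 10 DAP and from 0.93 to 1.18 at 30 DAP.

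At 45 DAP, *CmPPR1* had 11.5, 9.26 and 8.38 CPM in “4_14”, against 16.7, 9.36 and 8.65 CPM in “4_6”. Replicate 1 of “4_6” stood apart from the other libraries of this stage, which all lay between 8.38 and 11.5 CPM. The log2 fold change was -0.26 (95% interval -0.91 to 0.39, adjusted p = 0.55 from edgeR), and it was 0.11 without that replicate. Averaged over the stages, the difference between the lines was -0.06 (-0.35 to 0.24, adjusted p = 0.79), an average over differences of opposite sign, and without replicate 1 of “4_6” it was 0.06.

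*CmAPRR2*, the transcription factor gene of fruit pigmentation, was the member with a line difference in a constant direction. At 10 DAP its levels were 368.7, 454.3 and 718.5 CPM in “1_14”, against 718.9, 1021 and 763.6 CPM in “1_6”. The highest library of “1_14”, replicate 3, came within 0.5 CPM of the lowest of “1_6”. The log2 fold change was -0.72 (standard error 0.27), and the adjusted p of 0.056 from edgeR missed the threshold. Without replicate 3 of “1_14” the value was -1.03, with an adjusted p of 0.013. It was the only call among the 6 fits that left out a library, whose values lay between -1.03 and -0.53.

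At 30 DAP, *CmAPRR2* had 788.2, 689.5 and 808.0 CPM in “3_14”, against 2185, 1664 and 1961 CPM in “3_6”. Every “3_6” library was above every “3_14” library by a wide margin. The lines differed by a log2 value of -1.34 (standard error 0.12, adjusted p = 0.0010 from edgeR), so the orange line had 0.395 times the level of the white line. The difference was larger in size than that of 95.2% of the genes tested, passed the DEG rule, and stayed between -1.45 and -1.25 in the fits that left out a library, all of them called.

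At 45 DAP, *CmAPRR2* had 259.3, 190.3 and 221.6 CPM in “4_14”, against 406.3, 699.4 and 364.2 CPM in “4_6”. The lines did not overlap, and replicate 2 of “4_6” was far above the other libraries. The lines differed by a log2 value of -1.14 (standard error 0.26, adjusted p = 0.030 from edgeR), or 0.454 times the level of “B-6”, and it passed the DEG rule, as 11.4% of genes did. Its call was lost without replicate 1, 2 or 3 of “4_14”, where the values were -1.25, -1.03 and -1.13 and the adjusted p-values 0.072, 0.086 and 0.10. Without replicate 2 of “4_6” the value was -0.80 and the call remained.

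Over all stages, *CmAPRR2* was downregulated in “B-14” by a log2 value of -1.06 (95% interval -1.38 to -0.74, adjusted p = 6.6e-05 from edgeR), 0.480 times the level in “B-6”. All 18 fits that left out a library called it, with values from -1.19 to -0.94. The background share of genes called in this comparison was 39.1%, and 7.53% passed the DEG rule, *CmAPRR2* among them.

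**Figure D2:**
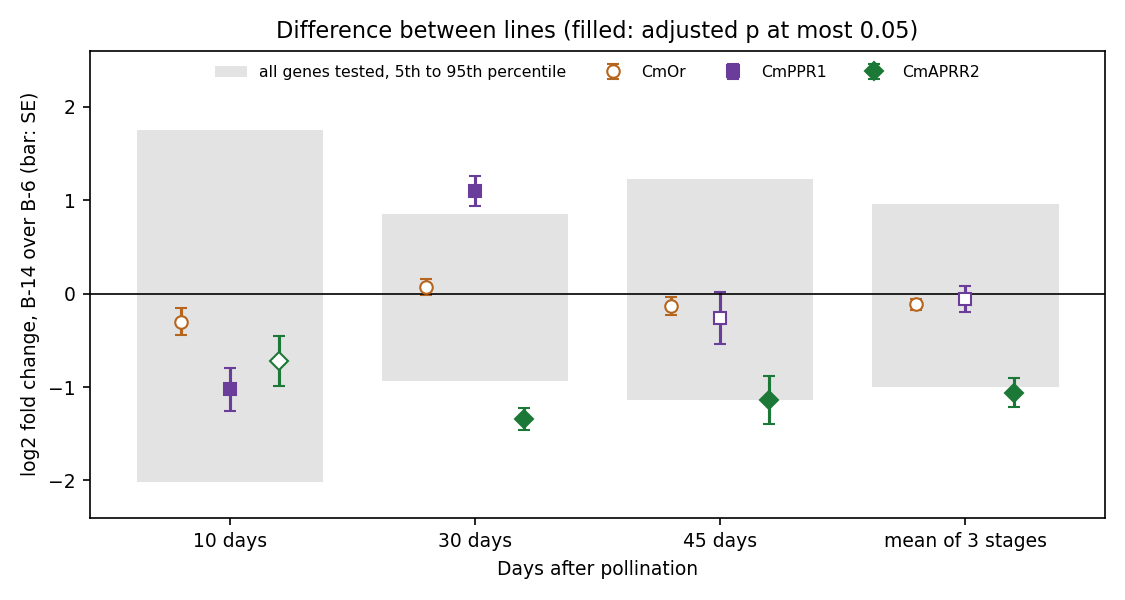
Log2 fold change of “B-14” over “B-6” for the 3 genes (y axis; bars are standard errors) at 10, 30 and 45 DAP and averaged over the stages; filled symbols had an adjusted p of at most 0.05, and grey blocks span the 5th to the 95th percentile of all genes tested. *CmOr* lay between -0.30 and 0.07, *CmPPR1* had -1.03 at 10 DAP and 1.10 at 30 DAP, and *CmAPRR2* was below 0 throughout.

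The stages were then compared within each line, the later over the earlier. *CmOr* was upregulated in all 6 comparisons. In “B-14” its mean level was 27.3 ± 3.62 CPM at 10 DAP, 67.7 ± 6.86 at 30 DAP and 92.9 ± 3.66 at 45 DAP. In “B-6” its mean was 33.3 ± 3.09, 64.8 ± 1.84 and 101.2 ± 7.63 CPM at these stages (SD, n = 3). No library of a later stage overlapped with one of an earlier stage in either line. From 10 to 45 DAP it rose by a log2 value of 1.84 (standard error 0.12, adjusted p = 1.6e-05 from edgeR) in “B-14” and 1.60 (standard error 0.13, adjusted p = 1.9e-05) in “B-6”, which are 3.57 and 3.04 times the starting levels.

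On the log2 scale, the rise of *CmOr* before 30 DAP was 1.37 in “B-14” and 0.95 in “B-6”, against 0.47 and 0.68 from 30 to 45 DAP, all called by edgeR. Fruit development changed much of the transcriptome. The share of genes called was 68.8% for 30 against 10 DAP, 71.6% for 45 against 10 DAP and 51.4% for 45 against 30 DAP in “B-14”, and 74.6%, 69.9% and 58.8% in “B-6”. The difference between the lines in the rise from 10 to 30 DAP was 0.38 (standard error 0.17, 95% interval 0.02 to 0.75). The interval is not adjusted for the number of genes, and the adjusted p of 0.088 from edgeR's interaction test missed the threshold. Without replicate 3 of “3_14” this interaction was 0.47, with an adjusted p of 0.044, the only call among 12 fits that left out a library. The interactions for 45 against 10 DAP (0.16, 95% interval -0.20 to 0.53) and 45 against 30 DAP (-0.18, -0.44 to 0.08) were not called.

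For *CmPPR1*, the courses of the lines differed. The mean level in “B-14” was 4.05 ± 0.663 CPM at 10 DAP, 13.4 ± 1.11 at 30 DAP and 9.71 ± 1.60 at 45 DAP, with its peak at 30 DAP. In “B-6” it was 8.16 ± 1.5, 6.28 ± 1.22 and 11.6 ± 4.43 CPM (SD, n = 3), with its lowest point at 30 DAP. From 10 to 30 DAP, *CmPPR1* rose in “B-14” by a log2 value of 1.78 (standard error 0.18, adjusted p = 0.00014 from edgeR) and had -0.39 in “B-6” (standard error 0.21, adjusted p = 0.13). Without replicate 3 of “1_6”, the value in “B-6” was -0.54 with an adjusted p of 0.047. It was the only call among the 6 fits that left out a library.

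The interaction test of *CmPPR1* for 30 against 10 DAP gave 2.13 on the log2 scale (standard error 0.28, adjusted p = 0.00015 from edgeR, 12 libraries). This was larger in size than 89.8% of the interactions of 17135 genes, of which 38.8% were called, and the call held in all 12 fits that left out a library. For 45 against 30 DAP the interaction was -1.33 (standard error 0.34, adjusted p = 0.025), where 16.6% of 16104 genes were called. That call was lost without replicate 2 of “3_6” (-1.19, adjusted p = 0.060), without replicate 1 of “3_14” (-1.33, adjusted p = 0.055) and without replicate 3 of “4_14” (-1.24, adjusted p = 0.061). The separate steps from 30 to 45 DAP were -0.45 in “B-14” (adjusted p = 0.034) and 0.92 in “B-6” (adjusted p = 0.027). The call in “B-14” was lost without any of the “3_14” libraries and without replicate 2 or 3 of “4_14” (values from -0.51 to -0.36), and that in “B-6” without any of the “3_6” libraries (0.76 to 1.01).

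From 10 to 45 DAP, *CmPPR1* rose in “B-14” by a log2 value of 1.33 (standard error 0.21, adjusted p = 0.00091 from edgeR). In “B-6” the value was 0.50 (95% interval -0.16 to 1.16, adjusted p = 0.15). The interaction of these changes was 0.76 (standard error 0.38) with an adjusted p of 0.13, where 37.1% of 17250 genes were called. Without replicate 1 of “4_6”, the library with the highest *CmPPR1* level of all, the interaction was 1.12 and its adjusted p 0.014. It was the only call among the 12 fits that left out a library.

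*CmAPRR2* had the highest mean of its course at 30 DAP and the lowest at 45 DAP in both lines. In “B-14” the means were 513.8 ± 182 CPM at 10 DAP, 761.9 ± 63.5 at 30 DAP and 223.7 ± 34.5 at 45 DAP. In “B-6” they were 834.4 ± 163, 1937 ± 261 and 490.0 ± 183 CPM (SD, n = 3). From 30 to 45 DAP it fell by 1.75 on the log2 scale in “B-14” (standard error 0.13, adjusted p = 0.00016 from edgeR) and by 1.94 in “B-6” (standard error 0.27, adjusted p = 0.00092). The libraries of these stages did not overlap in either line.

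The rise of *CmAPRR2* from 10 to 30 DAP was called in “B-6”, with 1.21 (standard error 0.18, adjusted p = 0.00042 from edgeR), whereas the value of 0.63 in “B-14” had an adjusted p of 0.059. Without replicate 3 of “1_14” the value in “B-14” was 0.95, with an adjusted p of 0.0035, the only call among 6 fits that left out a library. The change from 10 to 45 DAP was -1.13 in “B-14” (adjusted p = 0.0055) and -0.77 in “B-6” (adjusted p = 0.041), and the call in “B-6” held in 2 of 6 fits that left out a library and was lost with scaling by library size alone. Without replicate 1 or 3 of “4_6” or replicate 2 or 3 of “1_6”, the value in “B-6” was -0.65, -0.60, -0.61 or -0.83. None of the 3 interactions of *CmAPRR2* was called, with -0.61 for 30 against 10 DAP (95% interval -1.33 to 0.10), -0.43 for 45 against 10 DAP (-1.33 to 0.47) and 0.22 for 45 against 30 DAP (-0.47 to 0.91).

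**Figure D3:**
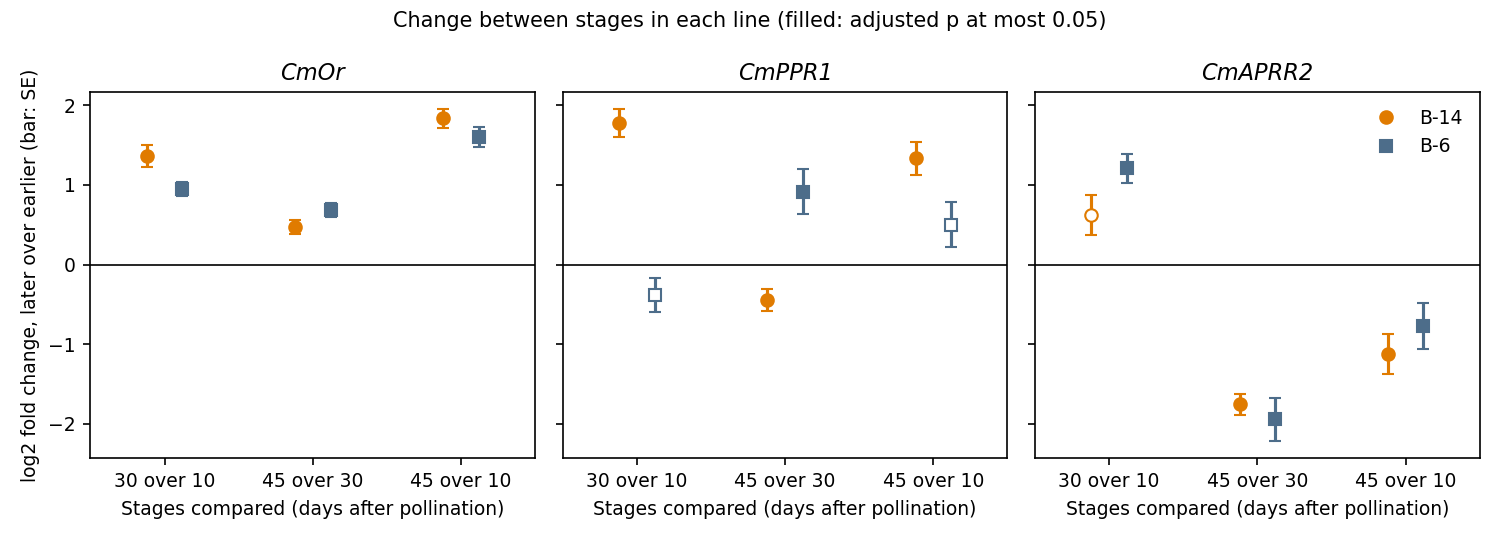
Log2 fold change of the later over the earlier stage (y axis; bars are standard errors) for 30 over 10, 45 over 30 and 45 over 10 DAP, with “B-14” as orange circles left of “B-6” as blue squares; filled symbols had an adjusted p of at most 0.05. The values of the lines had the same sign for *CmOr* and *CmAPRR2*, and for *CmPPR1* they had 1.78 and -0.39 from 10 to 30 DAP.

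The 6 groups were also put in the order of their mean levels, with neighbours compared in a fit of all 18 libraries. For *CmOr* the order from the highest was “4_6”, “4_14”, “3_14”, “3_6”, “1_6” and “1_14”. The groups thus followed the stages, with “B-14” below “B-6” at 45 and 10 DAP and above it at 30 DAP. Neighbours of the same stage were not separated by the test at 45 DAP (0.12 on the log2 scale, adjusted p = 0.44 from edgeR) or at 30 DAP (0.06, adjusted p = 0.77). At 10 DAP, “1_6” was above “1_14” by 0.29 (adjusted p = 0.035) in this fit, a call that the test on 6 libraries did not make and that scaling by library size alone removed (0.21, adjusted p = 0.12).

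For *CmPPR1* the order was “3_14”, “4_6”, “4_14”, “1_6”, “3_6” and “1_14”. The libraries of each pair of neighbours overlapped down to “3_6”, and the 4 adjusted p-values of these pairs lay between 0.18 and 0.49. Only the lowest group, “1_14”, was separated from its neighbour “3_6”, by 0.63 (adjusted p = 0.033 from edgeR).

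For *CmAPRR2*, “3_6” stood above all other groups, by 1.22 on the log2 scale over its neighbour “1_6” (adjusted p = 0.00067 from edgeR), and “4_14” stood below all others, by 1.13 under “4_6” (adjusted p = 0.0060). Between them lay “1_6”, “3_14”, “1_14” and “4_6”, whose neighbours overlapped and were not called (adjusted p from 0.061 to 0.82). With scaling by library size alone the order of these middle groups changed to “3_14”, “1_6”, “4_6” and “1_14”. In that order “1_6” was above “4_6” by 0.58 (adjusted p = 0.045 from edgeR). The orange line at 45 DAP had the lowest *CmAPRR2* level of the 6 groups, and the white line at 30 DAP the highest.

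The genes with the most similar pattern were taken by Pearson's r of log2 CPM over the 18 libraries, as a description over libraries that share lines and stages. For *CmOr* they were MELO3C024960.2 (r = 0.99, Spearman's rho = 0.98), MELO3C003506.2 (0.99 and 0.95) and MELO3C015675.2 (0.99 and 0.98). For *CmPPR1* they were MELO3C002978.2 (0.92 and 0.93), MELO3C026536.2 (0.90 and 0.87) and MELO3C011121.2 (0.89 and 0.81). For *CmAPRR2* they were MELO3C007562.2 (0.94 and 0.92), MELO3C006785.2 (0.93 and 0.80) and MELO3C032386.2 (0.92 and 0.92). By rho in place of r, 2, 1 and 0 of these 3 genes remained for *CmOr*, *CmPPR1* and *CmAPRR2*. The members themselves were less alike, with r = 0.66 between *CmOr* and *CmPPR1*, -0.24 between *CmOr* and *CmAPRR2* and -0.15 between *CmPPR1* and *CmAPRR2*.

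Among the pigment pathway genes, those of carotenoid biosynthesis (24 genes) and of porphyrin and chlorophyll metabolism (42 genes) that the study tabulated, the one most like *CmOr* was *ZDS* (MELO3C024674.2), which encodes a desaturase on the way to lycopene, with r = 0.99. It ranked 4th of 17436 genes in likeness to *CmOr*. *PSY* (MELO3C025102.2), whose product is the partner of the OR protein, had r = 0.91 with *CmOr* but ranked 790th in this likeness. The other *PSY* gene (MELO3C016185.2) had 0.42 and ranked 5818th. The lowest value was that of *CHLH1* (MELO3C002961.2), annotated as a magnesium chelatase subunit, with -0.89. *CHLH1* had 0 counts in all libraries of 30 and 45 DAP and means of 0.508 CPM in “1_14” and 1.19 CPM in “1_6”, so this r rests on its presence at 10 DAP and on the prior count. The next lowest list gene was At5g26710 (MELO3C015227.2) with -0.88.

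For *CmPPR1*, *CHLI* (MELO3C007233.2), a magnesium chelatase subunit of chlorophyll synthesis, had the highest r of the list genes (0.79, rank 74 of 17436 genes). *COX10* (MELO3C006242.2), annotated as a farnesyltransferase of heme, had the lowest (-0.61). The values of *CmPPR1* with the *PSY* genes were 0.76 for MELO3C025102.2 (rank 182) and 0.31 for MELO3C016185.2. For *CmAPRR2*, a gene annotated as ferrochelatase-2 (MELO3C019619.2), an enzyme of heme synthesis, had the highest r (0.88, rank 31). *CHLP* (MELO3C014712.2), a reductase that supplies the phytol chain of chlorophyll, had the lowest (-0.82). Other genes of the same annotation differed from these. *HEMH* (MELO3C010762.2), also annotated as ferrochelatase-2, had -0.18, and the other *CHLP* gene (MELO3C017176.2) had 0.29. *CmAPRR2* had -0.04 with *PSY* MELO3C025102.2 and 0.41 with MELO3C016185.2.

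**Figure D4:**
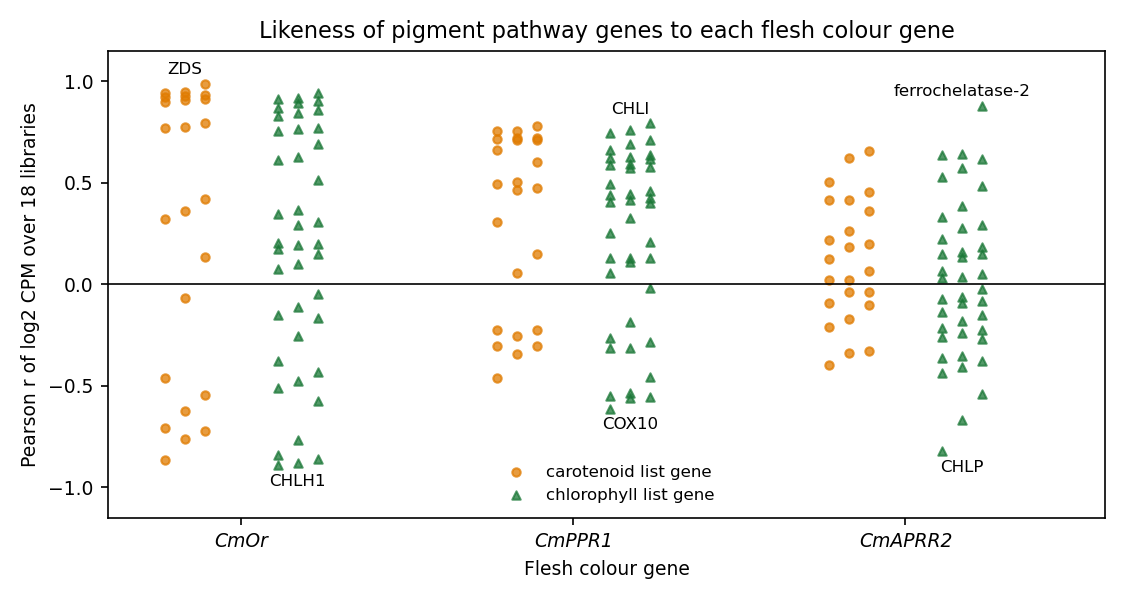
Pearson's r of log2 CPM over the 18 libraries (y axis) between each flesh colour gene (x axis) and each carotenoid (circles) or chlorophyll (triangles) list gene; the genes with the highest and lowest r are labelled. The values with *CmOr* reached 0.99 and those with *CmPPR1* 0.79, and both lists held genes on either side of 0 for each of the 3.

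The pathway genes were set beside the members in each comparison of the lines, with edgeR's adjusted p-value as the criterion. The study chose both lists on these samples, so their counts are no independent evidence of a direction. The carotenoid list used here may be a part of the study's own, and its counts and medians are those of these 24 genes. At 10 DAP, 3 of 24 carotenoid genes were higher and 16 lower in “1_14”, with a median log2 fold change of -0.69 against 0.01 over all genes, of which 25% were called higher and 23.8% lower. Among the lower genes, those with the smallest p-values were *PSY* MELO3C025102.2 (-2.69, standard error 0.17) and *CYP711A1* (MELO3C016879.2, -2.72), a cytochrome P450 of strigolactone synthesis. Among the higher genes they were *NCED6* (MELO3C023086.2, 1.26), which cleaves carotenoids towards abscisic acid, and *AAO2* (MELO3C014719.2, 1.53), an aldehyde oxidase. *CmPPR1* was lower at this stage too, and *CmOr* was not called.

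Of the chlorophyll genes, 6 of 41 tested were higher and 11 lower in “1_14”, which is 41.5% called in either direction against 48.8% of all genes. *POX2* (MELO3C008208.2, 1.34), a protoporphyrinogen oxidase, and a *PAO* gene (MELO3C035546.2, 2.35) of chlorophyll breakdown had the smallest p-values of the higher ones. Another *PAO* gene (MELO3C004867.2, -1.33) and *CHLH* (MELO3C023131.2, -2.19), a magnesium chelatase subunit, had those of the lower ones. The list's median was -0.05.

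At 30 DAP, where *CmPPR1* was higher and *CmAPRR2* lower in “B-14”, 4 of 23 carotenoid genes were higher and 2 lower, against 10% and 9.15% of all genes. The higher ones included *NCED2* (MELO3C007127.2, 1.02) and *Z-ISO* (MELO3C017709.2, 0.76), an isomerase of the pathway, and the lower ones were *CCD4* (MELO3C016224.2, -1.01), a carotenoid cleavage enzyme, and *AAO2* (-0.70). Of 41 chlorophyll genes, 7 were higher, among them *PAO* MELO3C035546.2 (2.29) and *PORA* (MELO3C013592.2, 1.49), which reduces protochlorophyllide. The other *PORA* gene (MELO3C016714.2, 0.26) was not called, with an adjusted p of 0.22 from edgeR. Of these chlorophyll genes, 1 was lower, the ferrochelatase-2 gene MELO3C019619.2 (-0.26). The ferrochelatase-2 call was lost without any of the “3_6” libraries and without replicate 1 of “3_14” (-0.28 to -0.26), with library size alone (-0.22) and in the fit of all libraries (-0.27). That of *Z-ISO* was lost without replicate 1 or 3 of “3_6” or replicate 2 of “3_14” (0.66 to 0.77). The calls of *CCD4* (-1.02) and *AAO2* (-0.71) were lost in the fit of all libraries. Under the DEG rule those of *AAO2* (-0.70), *Z-ISO* (0.76) and ferrochelatase-2 (-0.26) were lost. Without replicate 3 of “3_14”, 11 carotenoid and 14 chlorophyll genes were higher, and 4692 genes in all were called, against 2973 with it. Without replicate 1, 2 or 3 of “3_6”, 1, 2 and 1 carotenoid genes and 3 chlorophyll genes each time were higher, and without replicate 2 of “3_14” 2 carotenoid genes were.

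At 45 DAP, where *CmAPRR2* was lower in “4_14”, 1 of 41 chlorophyll genes was higher and 16 were lower, against 7.86% and 8.12% of all genes, with a median of -0.36. *PAO* MELO3C035546.2 (1.89) was the higher gene, and *PORA* MELO3C013592.2 (-1.78) and *HEMA1* (MELO3C011113.2, -1.41), which encodes an early enzyme of tetrapyrrole synthesis, had the smallest p-values of the lower ones. Without replicate 2 of “4_6” or replicate 3 of “4_14”, 10 or 8 were lower. The *PAO* genes did not share a direction. MELO3C004867.2 had 63.1 ± 4.35 CPM in “4_14”, against 88.2 ± 1.43 CPM in “4_6” (SD, n = 3). The *PAO* gene MELO3C035541.2, with few counts, had means of 0.781 CPM in “4_14” and 0.266 CPM in “4_6”. Of 23 carotenoid genes, 2 were higher, *ABA2* (MELO3C005129.2, 1.89) of abscisic acid synthesis and *Z-ISO* (0.53), and 3 were lower, among them *LCYE* (MELO3C004633.2, -3.22), the cyclase of the lutein branch, and *GGPS* (MELO3C020952.2, -1.01), which supplies the precursor of PSY. Without replicate 1 of “4_6”, 4 were higher, and without replicate 2 of “4_6” or any of the “4_14” libraries 1 was. Without each of these 4 libraries the *Z-ISO* call was lost (0.45 to 0.58), and it was also lost under the DEG rule.

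*PSY* MELO3C025102.2 had 306.1 ± 53.7 CPM in “4_14”, against 188.6 ± 43.0 CPM in “4_6” (SD, n = 3). On the log2 scale “4_14” was above “4_6” by 0.69 (standard error 0.20), and edgeR's adjusted p was 0.057. At 30 DAP the value was 0.61 (adjusted p = 0.070). DESeq2 called both, with adjusted p-values of 0.00945 and 0.0064, and at 45 DAP the fit of all libraries, library size alone and the fit without replicate 1 of “4_6” (0.88) called it too. At 30 DAP the value was 0.33 without replicate 1 of “3_14” and 0.74 without replicate 3 of “3_14”, with adjusted p-values of 0.036 and 0.018. The other *PSY* gene, MELO3C016185.2, was lower in “4_14” (-0.95, standard error 0.22, adjusted p = 0.031 from edgeR). That call was lost without replicate 2 of “4_6” (adjusted p = 0.11), without replicate 1, 2 or 3 of “4_14” (0.073, 0.068 and 0.11), and under the DEG rule. Its values of 0.44 at 10 DAP and -0.01 at 30 DAP were not called, and at 10 DAP the value ranged from 0.094 to 0.91 with 1 library left out.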

How the data were processed

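RNA of “B-14” and “B-6” fruits was sequenced as paired-end reads, with 3 libraries per line and stage. Whole-number counts per gene were deposited by the authors, who had used Trimmomatic for trimming and HISAT2 for alignment to a melon genome. The versions, build, annotation and counting program are not given in the sources used here. Total counts were 20651703 to 22675606 per library. The labels gave group and replicate.

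The count table was analysed in R 4.3.3 with edgeR 4.0.16 (TMM factors, filterByExpr, quasi-likelihood F test, Benjamini-Hochberg adjustment over all genes tested). Pairs of groups were fitted on 6 libraries, interactions on 12, and the mean line difference and the order of groups on 18. Intervals (95%) use the t distribution with edgeR's degrees of freedom. P-values measure the spread between the biological replicates of these lines, and whether each replicate was a single plant is not settled. The code was tested on simulated data.

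The genes named are the 3 members, the 3 genes with the highest Pearson's r to each (log2 CPM, prior count 2), both *PSY* genes, the list genes with the highest and lowest r, and per line comparison and direction the 2 called list genes with the smallest p. The members and lists were chosen with earlier results of these data known. Alternatives were DESeq2 1.42.0, RLE factors, library size alone, looser and stricter filters, 1 fit of all libraries, a replicate block, the DEG rule and leaving out each library. The RefSeq table used here (28628 genes) matched 0 of the identifiers, and positions and sequences are therefore left out.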

Additional observations from a re-analysis of the deposited data

Results flagged for a closer look

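*CmPPR1* had line by stage interactions past the threshold, meaning that the change between stages differed between the lines by a direct test. For 30 against 10 DAP the interaction was 2.13 on the log2 scale (edgeR, adjusted p = 0.00015), with 1.78 in “B-14” and -0.39 in “B-6”. All 3 libraries of “3_14” lay above all 3 of “1_14”, whereas “3_6” and “1_6” overlapped. For 45 against 30 DAP it was -1.33 (adjusted p = 0.025), with -0.45 in “B-14” and 0.92 in “B-6”, and 9 of the 12 fits that left out a library called it. *CmOr* and *CmAPRR2* had no interaction past the threshold among the 3 tested for each.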

How the results depend on the processing

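Of the values for the 3 genes, 296 kept their direction and, where tested, their side of the threshold under another tool, scaling, filter, fit or call rule. Another 7 passed it newly and 9 no longer passed it. The mean of the separate line comparisons, counted as kept, had no test. With 1 library left out, 298 were kept, 6 passed newly, 18 no longer passed and 2 changed sign. The cause was not tested. Without TMM factors, the median of all genes shifted by 0.15 (“3_6” versus “1_6”) and 0.18 (“4_6” versus “1_6”) on the log2 scale.

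For *CmOr*, the fit of all libraries called 10 DAP (-0.29), and 0.47 (“4_14” versus “3_14”), 0.95 (“3_6” versus “1_6”) and 0.68 (“4_6” versus “3_6”) were under the 2-fold of the DEG rule. For *CmPPR1*, “4_14” versus “3_14” was lost in the fit of all libraries (-0.46) and under the DEG rule (-0.45), as was “4_6” versus “3_6” (0.92) under the DEG rule. For *CmAPRR2*, 10 DAP was called by DESeq2 (-0.73) and the fit of all libraries (-0.70), “3_14” versus “1_14” by DESeq2 (0.59) and with library size alone (0.69), and “4_6” versus “1_6” was lost with library size alone (-0.58) and under the DEG rule (-0.77). With library size alone, 2 pairs of neighbours in the order of *CmOr* differed, where “1_6” was no longer separated from “1_14”. The order of *CmAPRR2* itself changed, and 3 pairs of neighbours in it differed, among them “1_6” over “4_6”. *PSY* MELO3C016185.2 had 0.031 at 30 DAP with this scaling.

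Samples were not treated as paired by replicate number. The 27 correlations of same-numbered deviations lay from -0.24 to 0.27, 5 of them over 0.1, and with 3 replicates per group they cannot settle whether a pairing exists. With a replicate block, *CmAPRR2* had -0.76 at 10 DAP (called), -1.08 at 45 DAP (not called) and 0.68 for “3_14” versus “1_14” (called). The block called *PSY* MELO3C025102.2 at 45 DAP (0.70), and did not call *Z-ISO* (0.76) or ferrochelatase-2 (-0.26) at 30 DAP. At 30 DAP the block called 1293 genes, with 1 carotenoid and 4 chlorophyll genes higher and 0 chlorophyll genes lower, and at 45 DAP 4 carotenoid and 2 chlorophyll genes were higher.

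The DEG rule took 4498 genes at 10 DAP (3 chlorophyll genes higher, 7 lower), 1090 at 30 DAP (1 carotenoid gene higher, 1 lower, 3 chlorophyll genes higher, 0 lower) and 1313 over the stages, and at 45 DAP 1 carotenoid and 2 chlorophyll genes higher. The fit of all libraries called 1543 genes at 30 DAP (2 carotenoid genes higher, 1 lower, 0 chlorophyll genes lower) and 4102 at 45 DAP (4 carotenoid genes higher, 5 lower, 3 chlorophyll genes higher). DESeq2 called 4 carotenoid genes lower at 30 DAP and 3720 genes at 45 DAP (4 carotenoid genes higher, 5 lower, 3 chlorophyll genes higher). Library size alone gave 0 chlorophyll genes lower at 30 DAP and 4 carotenoid genes higher at 45 DAP.

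With 1 library left out, *CmOr* ranged from -0.17 to -0.088 over the stages and from 0.28 to 0.47 in the interaction for 30 against 10 DAP. *CmPPR1* ranged from -0.43 to 0.11 at 45 DAP, -0.14 to 0.062 over the stages, -0.59 to -0.36 (“4_14” versus “3_14”), -0.54 to -0.23 (“3_6” versus “1_6”), 0.56 to 1.09 (“4_6” versus “3_6”), and in the interactions 0.62 to 1.12 (45 against 10 DAP) and -1.50 to -0.98 (45 against 30 DAP). *CmAPRR2* ranged from -1.03 to -0.53 at 10 DAP, -1.31 to -0.80 at 45 DAP, 0.44 to 0.95 (“3_14” versus “1_14”) and -1.1 to -0.60 (“4_6” versus “1_6”). *PSY* MELO3C016185.2 ranged from -0.11 to 0.15 at 30 DAP, and was 0.15, 0.025 and 0.025 without replicate 1 of “3_6” or replicate 2 or 3 of “3_14”. Genes called ranged from 1230 to 4692 at 30 DAP and from 896 to 4236 at 45 DAP, carotenoid genes higher from 1 to 11 and from 1 to 4, chlorophyll genes higher from 3 to 14 and from 1 to 3, and chlorophyll genes lower from 0 to 2 and from 8 to 18. With 3 libraries a group, *CmPPR1* had the lowest counts and a counting error of up to 12% per library.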
